A study of Homo sapiens with 6 samples.

Results

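The genes described here are 40 genes of ribosome biogenesis and of the nucleolus, taken by gene symbol from the 20030 rows of each expression table, and all 40 were found. They were followed in RNA sequencing of HCT116, a human colon carcinoma cell line, kept as 3 stable lines with 2 libraries each. One line over-expressed the TEAD4 K178R mutant (by convention, lysine replaced by arginine), one over-expressed wild type TEAD4, and one was a control whose construct the labels name only as PQ. All 3 lines share the HCT116 background, and no age, treatment or time applies. The labels do not say whether a line is 1 clone, which promoter drives TEAD4, or whether its libraries were grown as separate cultures. Each p-value is therefore set against the spread of the libraries at hand, and that spread may be only technical. One wild type library, replicate 2, has TEAD5 in its genotype field but wild type TEAD4 in its title, and was kept in that group. Values are FPKM (fragments per unit of transcript length and of sequencing depth) as the authors deposited them, and differences are on the log2(FPKM + 1) scale.

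Ribosomes are built in the nucleolus. RNA polymerase I transcribes the ribosomal RNA precursor, small nucleolar ribonucleoproteins (snoRNPs) guide its methylation and pseudouridylation, and assembly factors fold and cut it into the small and the large subunit. This work is among the largest expenses of a growing cell, and in colon carcinoma cells it is commonly driven by MYC, which binds the sequence CACGTG (the E-box). TEAD4 binds DNA with YAP1 or TAZ at the sequence CATTCC (the MCAT element).

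The promoters of 4 of these genes are given as examples, and counts over the members follow below. Each run covers 250 bases before to 50 after the RefSeq start in GRCh38.p14, read 5′ to 3′ on the gene's strand, and capitals mark CACGTG or CATTCC on either strand. UTP20 (chr12:101279855-101280154, plus strand) and PES1 (chr22:30591861-30592160, minus strand) had the largest falls with wild type TEAD4, and each holds 1 E-box. NCL (chr2:231464435-231464734, minus strand) fell and NPM3 (chr10:101783397-101783696, minus strand) rose with wild type TEAD4, and neither run holds a capital.
UTP20: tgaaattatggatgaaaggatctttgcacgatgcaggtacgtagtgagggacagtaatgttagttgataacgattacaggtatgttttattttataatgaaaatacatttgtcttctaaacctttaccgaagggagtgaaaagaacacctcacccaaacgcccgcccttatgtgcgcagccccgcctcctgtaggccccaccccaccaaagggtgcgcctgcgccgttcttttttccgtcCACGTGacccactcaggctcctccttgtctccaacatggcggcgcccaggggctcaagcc
PES1: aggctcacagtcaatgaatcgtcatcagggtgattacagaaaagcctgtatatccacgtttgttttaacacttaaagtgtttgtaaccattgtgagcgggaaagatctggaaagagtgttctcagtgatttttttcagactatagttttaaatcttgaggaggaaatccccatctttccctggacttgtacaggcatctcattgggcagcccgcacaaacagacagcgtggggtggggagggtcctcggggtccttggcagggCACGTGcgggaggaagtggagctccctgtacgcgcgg
NCL: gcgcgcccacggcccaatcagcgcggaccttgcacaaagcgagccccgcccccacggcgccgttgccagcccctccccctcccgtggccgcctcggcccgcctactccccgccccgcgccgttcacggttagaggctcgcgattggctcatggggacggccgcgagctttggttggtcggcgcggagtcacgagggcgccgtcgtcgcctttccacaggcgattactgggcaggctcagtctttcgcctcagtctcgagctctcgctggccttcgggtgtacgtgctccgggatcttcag
NPM3: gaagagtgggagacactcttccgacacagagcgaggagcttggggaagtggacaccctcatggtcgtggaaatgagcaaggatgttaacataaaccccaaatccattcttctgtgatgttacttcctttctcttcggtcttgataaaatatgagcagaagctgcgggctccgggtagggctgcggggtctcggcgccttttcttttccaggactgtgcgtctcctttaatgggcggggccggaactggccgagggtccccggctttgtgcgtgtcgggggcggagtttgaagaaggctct

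RefSeq promoter windows were found for 33 of the 40 members. CACGTG, which reads the same on both strands, was in 13 of these 33 (39.4%), against 943 of 9086 windows of genes tested (10.4%) and 2030 of all 27305 windows in the table (7.43%). In each of the 13 members a copy lay within 50 bases of the start. Where it lay in the windows of other genes was not counted, so this position cannot be called particular to the members. CATTCC or its reverse complement GGAATG was in 5 of 33 members (15.2%), against 963 of 9086 windows of genes tested (10.6%) and 3836 of all 27305 windows (14.0%), and it does not overlap CACGTG in sequence. The median GC content of the windows was 65.0% in members and 65.7% over 9086 genes tested. Of the members with a window, an E-box was in 5 of 17 that were lower with wild type TEAD4, in 0 of 3 that were higher and in 8 of 13 that were not called. The same split over all genes tested was not counted, and these sets are small, so no relation is drawn from it. A match of letters is a description and shows no binding.

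Another shared feature is the carriage of small nucleolar RNA genes, which are commonly cut out of introns of such hosts. In the GENCODE release used for annotation, 6 of 40 members (15.0%) contain at least 1 such gene on their own strand, against 216 of 11328 tested protein-coding genes (1.91%). These are NOP56, NOP58, DKC1, NCL, WDR43 and GNL3, with 23 such genes in all. The 40 members lie on 18 chromosomes, with at most 8 on any of them.

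The lines and libraries behaved as follows. TEAD4 read 71.2 and 72.3 FPKM in the K178R line, 86.4 and 84.4 in the wild type line, and 16.6 and 17.5 in the control line, and was higher in each TEAD4 line than in control (log2 2.01 for K178R and 2.26 for wild type, limma adjusted p = 2.1e-07 for each). The total of all FPKM per library ranged from 283195 to 305329, and the number of reads is unknown. Over 9952 genes above 1 FPKM in every library, Pearson's r of log2 FPKM within a group was 0.998 in each group, across genes that are not independent replicates. For the 40 members, the median absolute log2 difference within a pair of libraries was 0.03 in K178R, 0.03 in wild type and 0.04 in control. Epithelial markers of HCT116 were present (EPCAM 151 to 152, 146 to 148 and 152 to 153 FPKM in K178R, wild type and control), although CDX1 was listed at 0 in every library and VIL1 and LGALS4 were under 0.1 FPKM, and these 3 of 9 were under 1 FPKM throughout. The summed level of the 9 was 2437 to 2447 FPKM in K178R, 1371 to 1408 in wild type and 2138 to 2175 in control. That order came mostly from the keratins KRT8 (means of 1381, 770.3 and 1298 FPKM in K178R, wild type and control) and KRT18 (889.7, 457 and 691 FPKM). The epithelial sum was thus lowest in the wild type line, where most members were also lowest, and its part in the members' levels was not tested. Of 6 fibroblast markers, 5 were under 1 FPKM in every library, among them COL1A2, DCN and LUM, listed at 0, and their summed level was 1.73 to 1.88 FPKM in K178R, 3.64 to 3.78 in wild type and 1.53 to 1.76 in control. The corresponding sums were 1.49 to 2.002, 2.31 to 2.78 and 1.21 FPKM over 6 leukocyte markers, with PTPRC and CD3E at or near 0, and 1.37 to 1.52, 1.96 to 2.46 and 2.02 to 2.13 over 5 endothelial markers. Most of the fibroblast sum was COL1A1 (means of 1.72, 3.63 and 1.62 FPKM in K178R, wild type and control). In the same order, CORO1A made most of the leukocyte sum (1.62, 2.31 and 1.05) and ESAM most of the endothelial sum (1.39, 2.12 and 1.98).

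The members are highly expressed. In control libraries their means ranged from 12.5 FPKM for UTP20 to 845 for NPM1 with a median of 42.2, and each of the 40 lay above the median of 6.77 FPKM over 11445 genes tested. In the K178R line the median was 41.5 FPKM and in the wild type line 36.8. NPM1, a histone chaperone that fills the granular part of the nucleolus, stood first in each line, and NCL, an abundant RNA-binding protein of the nucleolus, second. All 40 passed the filter on low values, at least 0.5 FPKM in at least 2 libraries. In bulk RNA, fewer cells that express a gene and less RNA per cell cannot be told apart.

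**Figure D1:**
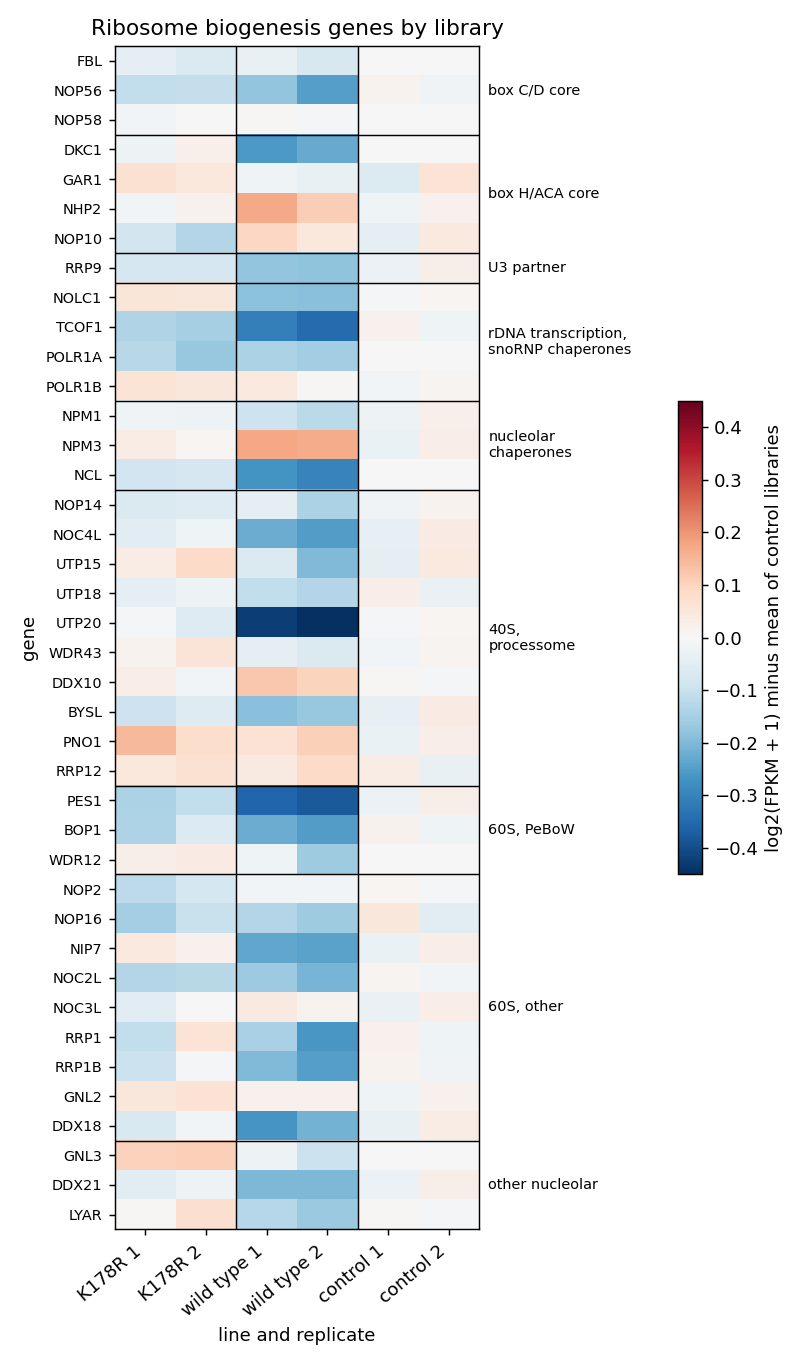
Each row is a member and each column a library, from K178R through wild type to control, and colour gives log2(FPKM + 1) minus the mean of the 2 control libraries. In the wild type columns most rows are blue, deepest for UTP20 and PES1, with NPM3 and NHP2 red, while the K178R columns are paler.

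With wild type TEAD4, most of the 40 members were lower than in control. The list of members was drawn up with earlier results of these data known. Of 40 members 22 were lower and 3 higher at an adjusted p under 0.05 (limma, Benjamini-Hochberg over 11445 genes), while 12.2% of all genes tested were lower, 37.6% higher and 49.9% called in either direction. The members' median log2 change was -0.14 and that of all genes 0.09. Mean FPKM fell by 28.4% for UTP20, the largest of these falls, and fell by 7.27% for NPM1, the smallest. In 29 of 40 members every wild type library lay below every control library, against 21.9% of genes tested, and in 6 every wild type library lay above, against 54.9%. Among 4556 genes with a mean of at least 10 FPKM over all libraries, a set chosen after seeing the data that holds all 40 members, 19.9% were lower and 35.3% higher, with a median log2 change of 0.05. After median-of-ratios scaling 30 members were lower and 0 higher, against 2416 and 2943 of all genes, and after upper-quartile scaling 29 were lower and 1 higher, against 2162 and 3185. The 8 members added as lower by median-of-ratios scaling were FBL, NOP58, NOP14, UTP15, WDR43, WDR12, NOP2 and GNL3. None of the 3 higher members, NPM3, NHP2 and DDX10, was called after that scaling. Of the 22 lower members, 17 were called under each of 14 alternative settings. The other 5 were NOP16, NPM1, POLR1A, RRP1 and UTP18. How many of all genes called held under every alternative was not counted, here or in the comparisons below.

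With TEAD4 K178R, 20% of members were called against control in either direction, near the 22.8% of all genes tested. Of 40, 7 were lower and 1 higher, against 11.1% and 11.7% of all genes tested (22.8% in either direction). Among genes with a mean of at least 10 FPKM, 18.1% were lower and 11.9% higher, and the share of lower members, 17.5%, is near that background. The median log2 change was -0.03 in members and 0.00 over all genes. The lower ones were POLR1A, TCOF1, NOC2L, PES1, NOP56, NOP2 and NCL. Mean FPKM fell by 10.4% for POLR1A, the largest of these falls, and fell by 5.38% for NCL, the smallest. GNL3 was the higher one, by 7.69%. None of these 8 calls held under each of the 14 alternatives. The count of lower members was 0 without K178R replicate 1, 1 without K178R replicate 2, 1 without either control replicate, and 0 with the control libraries averaged as 1 sample. The member in these counts of 1 was BOP1, NOP10 or NOP16, and none of the 8 members named above was called in any of these settings. Between K178R libraries and control libraries 14 members did not overlap downward and 8 upward, against 30.3% and 32.7% of all genes tested.

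The K178R and wild type lines were also compared directly. TEAD4 itself averaged 71.8 FPKM in the K178R line against 85.4 in the other (log2 -0.25, limma adjusted p = 0.00131). Whether the members' levels went with this TEAD4 level or with the mutation was not tested. Most members had a higher FPKM in the K178R line. Of 40 members 21 were higher and 5 lower, against 10.4% and 34.5% of all genes tested (44.9% in either direction), and 15.0% and 37.1% of genes with a mean of at least 10 FPKM. The median log2 difference was 0.10 in members and -0.08 over all genes. In 27 members both K178R libraries lay above both wild type libraries, against 21.5% of genes tested. After median-of-ratios scaling 30 members were higher and 0 lower, against 2171 and 2598 of all genes, and after upper-quartile scaling 28 and 1, against 1951 and 2789. Of the lower calls (NPM3, NHP2, NOP10, DDX10 and NOP2), that of NOP10 alone held after upper-quartile scaling. Without wild type replicate 2 the count of higher members was 13 and without K178R replicate 2 it was 12, and 12 members held under each of the 14 alternatives. This comparison uses the same wild type libraries as the one with control, and the comparisons with control share the control libraries, so their values stand side by side and are not independent of each other.

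**Figure D2:**
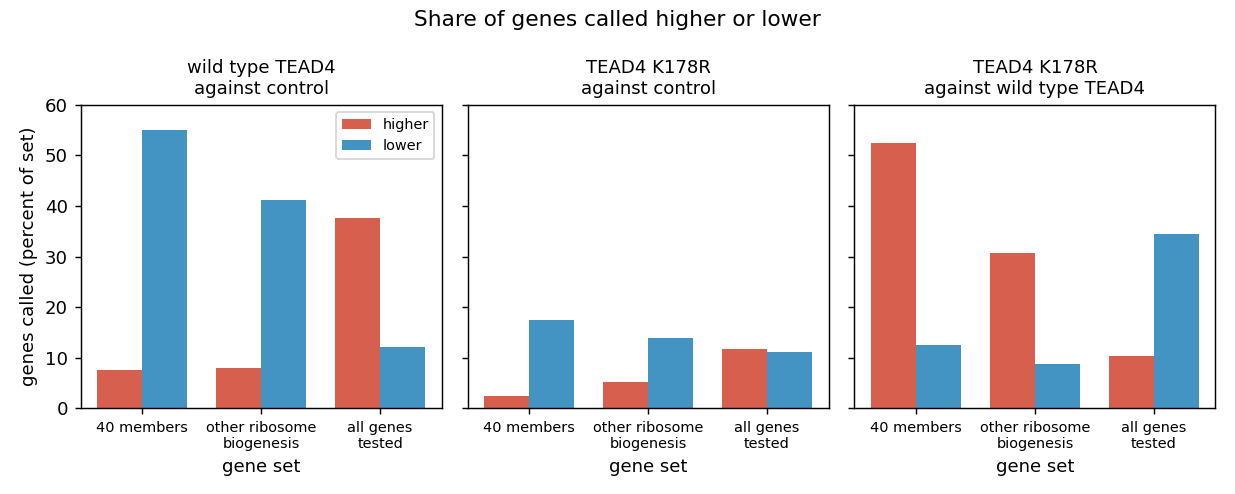
Bars give the percent of genes called higher (red) or lower (blue) at an adjusted p under 0.05 for the 40 members, 114 other ribosome biogenesis genes and all 11445 genes tested, in each comparison. With wild type TEAD4, 55% of members were lower and 7.5% higher, against 12.2% and 37.6% of all genes. The K178R against wild type panel shows the opposite directions.

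**Figure D3:**
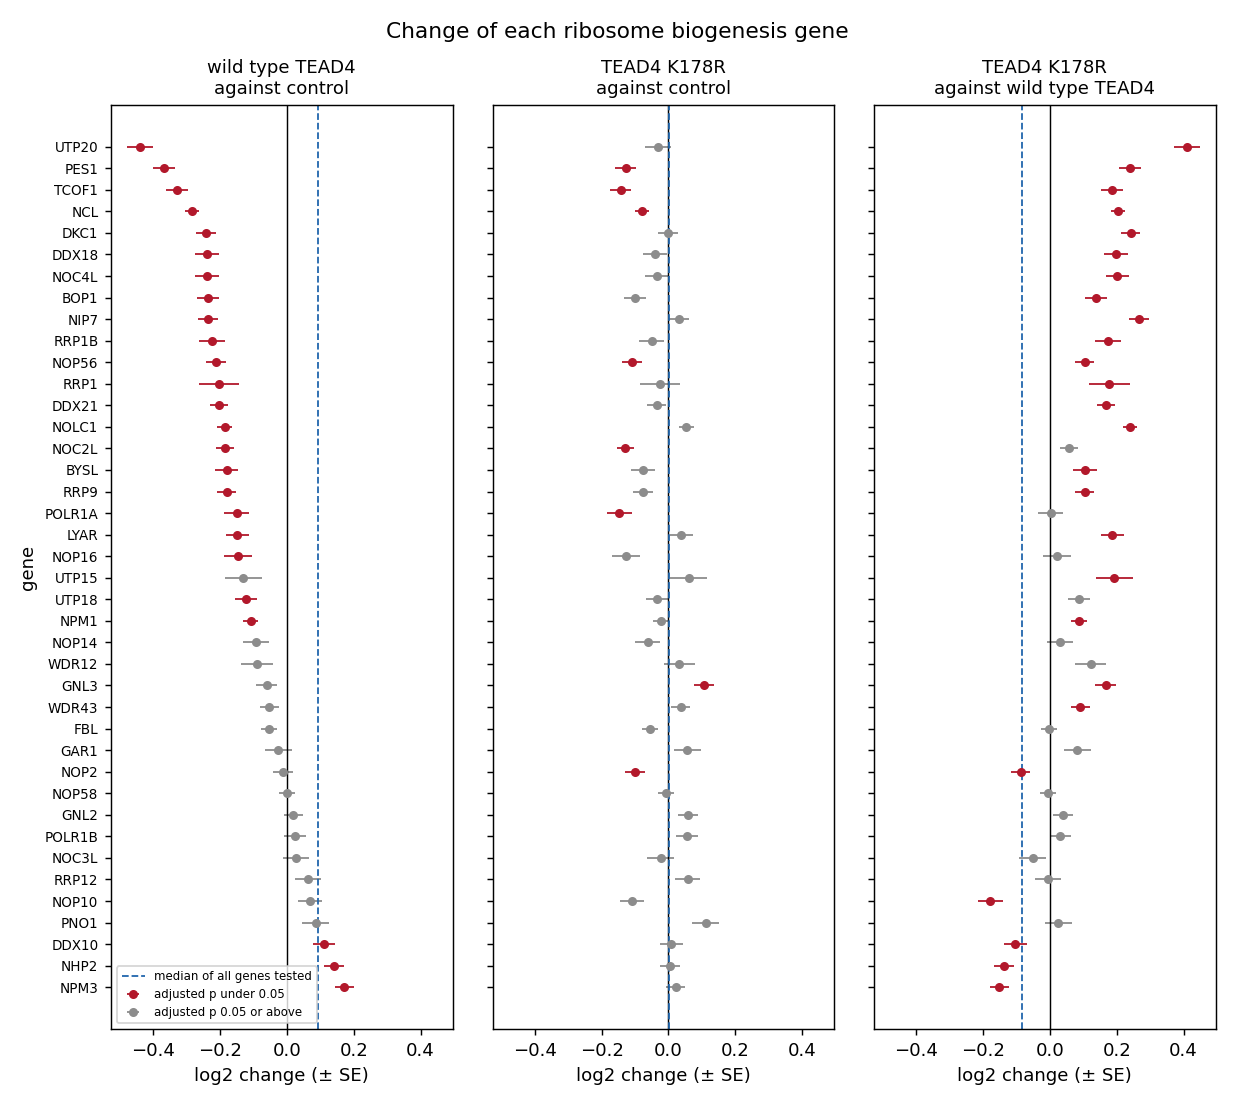
Points give each member's log2 change with its SE in the 3 comparisons, ordered by the change in wild type against control, red where the adjusted p is under 0.05, with the median of all genes as a dashed line. Most points lie left of the dashed line in the wild type panel and right of it in the K178R against wild type panel, and near 0 in the K178R against control panel.

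Transcription of ribosomal DNA was represented by 3 members. TCOF1 encodes treacle, which assists RNA polymerase I at the ribosomal genes and is mutated in Treacher Collins syndrome. It read 26.4 and 26.1 FPKM in K178R, 23.3 and 22.7 in wild type, and 29.5 and 28.7 in control. The 3 lines did not overlap, with wild type lowest and control highest. TCOF1 was lower in wild type than in control (log2 -0.33, SE 0.03, limma adjusted p = 2.6e-04), lower in K178R than in control (log2 -0.14, adjusted p = 0.0191), and its K178R level exceeded wild type (log2 0.19, adjusted p = 0.00355). POLR1A, the largest subunit of RNA polymerase I, read 11.9 and 11.4 FPKM in K178R, 11.7 and 11.6 in wild type, and 13.0 in each control library. Both TEAD4 lines lay below control by the same log2 change of -0.15 (limma adjusted p = 0.0287 for K178R and 0.0129 for wild type), and they did not separate from each other. The POLR1A call of wild type was lost when a control library was left out, when wild type replicate 2 was, or with averaged controls. Against control, the K178R calls of POLR1A and TCOF1 were lost when any control or K178R library was left out, and with averaged controls. POLR1B, the other large subunit, stood at 24.1 and 23.9 FPKM in K178R, 23.8 and 23.2 in wild type, and 22.9 and 23.3 in control, with no call there. POLR1B was higher in K178R than in wild type after each scaling (log2 0.11 and 0.10).

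Of the 3 core proteins of box C/D snoRNPs, which carry out ribose methylation, 1 was called lower with wild type TEAD4 on the deposited values. All 3 were lower than in control after either scaling. On the deposited values 12.2% of all genes tested were lower, and 3 proteins are too few to weigh against that share. NOP56, a scaffold protein, read 151 and 152 FPKM in K178R, 144 and 138 in wild type, and 165 and 162 in control. Wild type was lowest and control highest without overlap, and NOP56 fell with wild type TEAD4 (log2 -0.21, SE 0.03, limma adjusted p = 0.00109). Its K178R values lay between and were called against both, lower than control (log2 -0.11, adjusted p = 0.0369) and above wild type (log2 0.10, adjusted p = 0.0256), and both calls were lost when either K178R replicate was left out. NOP58, the partner of NOP56 in the same particle, was not called, with 73.4 and 74.0 FPKM in K178R, 74.4 and 73.8 in wild type, and 73.9 and 74.3 in control. FBL, fibrillarin, the methyltransferase, read 199.5 and 196 FPKM in K178R, 200.5 and 195 in wild type, and 206 and 205 in control, and was not called either (log2 -0.05 in each TEAD4 line). After median-of-ratios scaling the log2 change in wild type against control was -0.14 for FBL and -0.09 for NOP58 (limma adjusted p = 0.0023 and 0.0176). RRP9, which binds the U3 snoRNA of the small subunit, had 54.8 FPKM in each K178R library, 51.0 and 50.9 in wild type, and 56.8 and 59.0 in control, and was lower in wild type (log2 -0.18, limma adjusted p = 0.00197).

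In the box H/ACA core, which makes pseudouridine, 1 of 4 was lower and 1 higher in wild type than in control, with no higher call after scaling. Over all genes tested 12.2% were lower and 37.6% higher, and 4 proteins are too few to weigh against these shares. DKC1 encodes dyskerin, the pseudouridine synthase that also stabilises telomerase RNA. It read 55.7 and 57.5 FPKM in K178R, 47.2 and 48.3 in wild type, and 56.6 and 56.7 in control. Wild type libraries stood apart at the low end, and K178R overlapped control. DKC1 was lower in wild type than in control (log2 -0.24, SE 0.03, limma adjusted p = 5.8e-04), and K178R exceeded wild type (log2 0.24, SE 0.03, adjusted p = 8.2e-04). NHP2, a small RNA-binding subunit, ran the other way, with 142 and 145 FPKM in K178R, 162 and 155 in wild type, and 141 and 145 in control. Its rise with wild type TEAD4 (log2 0.14, SE 0.03, limma adjusted p = 0.00672) was not called after either scaling, where log2 was at its lowest 0.05. NOP10, the smallest core protein, read 179 and 173 FPKM in K178R, 202 and 196 in wild type, and 183 and 195 in control, and was called in 1 comparison, where K178R lay below wild type (log2 -0.18, limma adjusted p = 0.00659), though not after median-of-ratios scaling (log2 -0.09). GAR1, another core protein, read 66.6 and 65.7 FPKM in K178R, 62.7 and 62.2 in wild type, and 60.9 and 66.3 in control, and was not called, although it was higher in K178R than in wild type after each scaling (log2 0.17 and 0.15). NOLC1, a shuttling chaperone of both snoRNP classes, read 157 FPKM in each K178R library, 133 in each wild type library, and 150.5 and 152 in control. Wild type lay below both other lines, lower than control (log2 -0.19, SE 0.02, limma adjusted p = 5.6e-04) and exceeded by K178R (log2 0.24, adjusted p = 3.1e-04).

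The nucleolar chaperones held both the most abundant members and the member with the largest rise in wild type against control on the deposited values. NCL, nucleolin, read 431 and 434 FPKM in K178R, 379 and 371 in wild type, and 456 and 458 in control. The lines did not overlap, and wild type was lowest. NCL fell by 17.9% with wild type TEAD4 (log2 -0.28, SE 0.02, limma adjusted p = 9.1e-05), the smallest adjusted p among the members, and K178R exceeded wild type (log2 0.20, adjusted p = 4.8e-04). NPM1 read 833 and 830.3 FPKM in K178R, 791 and 776 in wild type, and 831 and 858 in control, lower in wild type (log2 -0.11, limma adjusted p = 0.00737), a call lost without control replicate 2 (adjusted p = 0.0597) and with no trend. GENCODE names 45 pseudogenes after NPM1, and how the authors treated reads that match several places is not given, so its level is uncertain. NPM3, a small relative of NPM1, read 120.4 and 118 FPKM in K178R, 133 and 132 in wild type, and 115 and 120.1 in control. Wild type lay above both other lines (log2 0.17 against control, SE 0.03, limma adjusted p = 0.00214), but after median-of-ratios scaling the log2 change was 0.08 and not called.

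**Figure D4:**
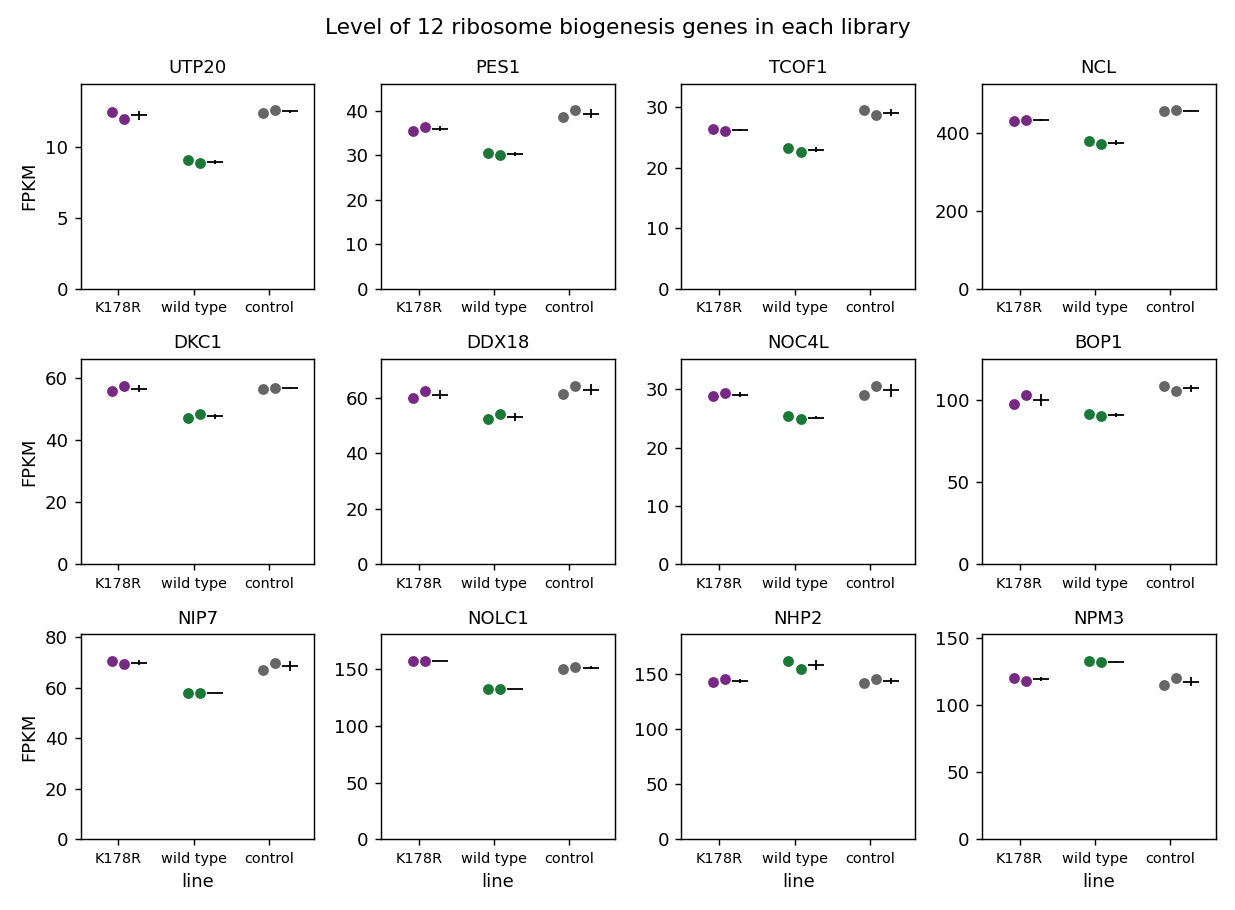
Dots are single libraries of 12 members in FPKM on axes from 0, with K178R, wild type and control from left to right, and the bar beside each pair gives mean and SD. Wild type lies lowest in the first 10 panels and highest for NHP2 and NPM3.

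Among 10 members of the small subunit processome and of 40S assembly, 4 were lower and 1 higher with wild type TEAD4, against 12.2% and 37.6% of all genes tested. UTP20, a large scaffold of the processome (chromosome 12, bases 101280109 to 101386616, plus strand, GRCh38), had the largest change of any member. It read 12.5 and 12.01 FPKM in K178R, 9.08 and 8.86 in wild type, and 12.5 and 12.6 in control. Wild type libraries stood well below the others, which overlapped. The change was a log2 of -0.44 in wild type against control (SE 0.04, limma adjusted p = 1.7e-04) and 0.41 in K178R against wild type (SE 0.04, adjusted p = 3.5e-04), while K178R against control was not called (log2 -0.03, adjusted p = 0.619). NOC4L, whose yeast counterpart pairs with that of NOP14, read 28.8 and 29.4 FPKM in K178R, 25.4 and 24.9 in wild type, and 29.1 and 30.6 in control (wild type against control, log2 -0.24, SE 0.04, limma adjusted p = 0.00148). NOP14 itself was not called (log2 -0.09, adjusted p = 0.0791), although it was after each scaling (log2 -0.18 and -0.16) and without wild type replicate 1. BYSL, needed late in 40S maturation (log2 -0.18), and UTP18, a processome subunit (log2 -0.12), were lower in wild type than in control, and the helicase DDX10 was higher (log2 0.11). The rise of DDX10 was not called after either scaling, with averaged controls, or without any 1 of the control and wild type libraries. The fall of UTP18 was not called without control replicate 1, without wild type replicate 2, or with averaged controls. UTP15 (log2 -0.13), WDR43 (-0.05), and the late 40S factors PNO1 (0.09) and RRP12 (0.06) were not called there, although UTP15 and WDR43 were lower after each scaling, and UTP15 also without wild type replicate 1. UTP15 and WDR43, both processome subunits, were higher in K178R than in wild type on the deposited values (log2 0.19 and 0.09). For WDR43 this call held in 5 of 14 alternatives and was lost when any library was left out, and for UTP15 it held in 10 and was lost without wild type replicate 2 or either K178R replicate.

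The PeBoW complex of PES1, BOP1 and WDR12 is needed to mature the large subunit RNAs. PES1 (chromosome 22, bases 30576625 to 30607083, minus strand, GRCh38) read 35.6 and 36.4 FPKM in K178R, 30.6 and 30.1 in wild type, and 38.7 and 40.1 in control. The lines did not overlap, with wild type lowest. PES1 was lower in wild type than in control (log2 -0.37, SE 0.03, limma adjusted p = 1.6e-04), lower in K178R than in control (log2 -0.13, adjusted p = 0.0278), and K178R exceeded wild type (log2 0.24, adjusted p = 0.00121). The call of K178R against control was lost when any control or K178R library was left out, with averaged controls and with no trend. BOP1 read 97.5 and 103 FPKM in K178R, 91.8 and 90.2 in wild type, and 109 and 106 in control, again lowest in wild type (log2 -0.24 against control, SE 0.03, limma adjusted p = 0.00107). WDR12 read 25.0 and 25.3 FPKM in K178R, 24.2 and 21.9 in wild type, and 24.5 and 24.6 in control. Its wild type libraries differed from each other more than in any other member, and it was not called (log2 -0.09 in wild type against control, adjusted p = 0.149), although it was after each scaling (log2 -0.18 and -0.16) and without wild type replicate 1.

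Of 9 further factors of 60S assembly, 6 were lower and 0 higher with wild type TEAD4, against 12.2% and 37.6% of all genes tested. The helicase DDX18 read 60.1 and 62.5 FPKM in K178R, 52.3 and 54.3 in wild type, and 61.6 and 64.5 in control (wild type against control, log2 -0.24, SE 0.04, limma adjusted p = 0.00156). NIP7, a pre-ribosomal RNA processing factor, read 70.5 and 69.2 FPKM in K178R, 58.0 and 57.7 in wild type, and 67.0 and 69.8 in control. Its wild type libraries lay below all others, and it was lower than in control (log2 -0.24, limma adjusted p = 6.9e-04) and exceeded by K178R (log2 0.27, SE 0.03, adjusted p = 5.8e-04). NOC2L, whose yeast counterpart accompanies pre-60S particles, read 99.0 and 99.6 FPKM in K178R, 96.9 and 93.9 in wild type, and 110 and 108 in control. Both TEAD4 lines lay below control (log2 -0.13, limma adjusted p = 0.0134 for K178R, and log2 -0.19, adjusted p = 0.00118 for wild type). The NOC2L call of K178R was lost when any control or K178R library was left out, with averaged controls and with no trend. RRP1B (log2 -0.22) and RRP1 (log2 -0.20), relatives of a yeast 60S factor, and NOP16 (log2 -0.15) were lower in wild type than in control too. The call of RRP1B held in each of 14 alternatives and that of RRP1 in 8. That of NOP16 was lost without control replicate 1 or wild type replicate 2. NOC3L (log2 0.03), the GTPase GNL2 (log2 0.02) and NOP2 (log2 -0.01) were not called in wild type against control. NOP2, an RNA cytosine methyltransferase, read 31.6 and 32.5 FPKM in K178R, 34.1 in each wild type library, and 34.6 and 34.2 in control, and its fall in K178R was at the threshold (log2 -0.10, limma adjusted p = 0.0499).

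Of the remaining nucleolar proteins, the RNA helicase DDX21 (log2 -0.20) and the zinc finger protein LYAR (log2 -0.15) were lower in wild type than in control. GNL3, nucleostemin, a nucleolar GTPase of proliferating cells, read 96.4 and 96.5 FPKM in K178R, 88.0 and 83.6 in wild type, and 89.7 and 89.3 in control. K178R lay above both other lines, which did not overlap either. GNL3 was higher in K178R than in control (log2 0.11, SE 0.03, limma adjusted p = 0.0433) and than in wild type (log2 0.17, adjusted p = 0.00406). The call of K178R against control held in 6 of 14 alternatives and was lost when any control or K178R library was left out. In wild type against control GNL3 was not called (log2 -0.06, adjusted p = 0.131), although it was lower after each scaling (log2 -0.15 and -0.13) and without wild type replicate 1.

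Several members share sequence or exons with other genes. GENCODE names pseudogenes after 11 of 40 members, and exons of 12 overlap those of a gene on the other strand, among them PES1 with TCN2, NHP2 with RMND5B, NIP7 with COG8, NOC2L with SAMD11 and GNL3 with GLT8D1. NOP2 overlaps a gene on its own strand. Whether FPKM was computed by strand is not given by the labels, so reads of such partners may be included.

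Outside the members, 115 further genes of the pathway were listed, also with earlier results of these data known. Of these, 114 were found and tested. With wild type TEAD4, 47 (41.2%) were lower and 9 (7.89%) higher, against 12.2% and 37.6% of all genes, with a median log2 change of -0.08, and 71 were lower and 4 higher after scaling by median of ratios. The counts of lower genes were 17 of 39 for the small subunit, 22 of 53 for the large subunit, 4 of 12 for RNA polymerase I and its factors, and 4 of 10 for the RNA exosome. The largest changes were those of EMG1, a pseudouridine methyltransferase (72.4 ± 4.09 FPKM in wild type and 99.5 ± 2.25 in control, log2 -0.45), the RNA acetyltransferase NAT10 (30.6 ± 0.00382 and 41.7 ± 0.289, log2 -0.44), the giant ATPase MDN1 (7.52 ± 0.251 and 9.89 ± 0.0377, log2 -0.36) and the processome scaffold HEATR1 (16.8 ± 0.204 and 21.5 ± 0.277, log2 -0.34), each mean ± SD with n = 2. In K178R against control 16 (14.0%) were lower and 6 (5.26%) higher, against 11.1% and 11.7% of all genes, so the lower share is near the background, with SBDS (log2 0.27) and UTP25 (log2 0.24) up and POLR1H (log2 -0.25) and EIF6 (log2 -0.25) down. In K178R against wild type 35 (30.7%) were higher and 10 (8.77%) lower, against 10.4% and 34.5% of all genes, led by MDN1 (log2 0.36), NOL12 (log2 0.32), URB2 (log2 0.31) and GNL3L (log2 0.30).

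MYC was higher in both TEAD4 lines than in control. It read 82.7 and 82.97 FPKM in K178R, 80.7 and 80.2 in wild type, and 58.5 and 59.6 in control. The change was log2 0.48 in K178R (SE 0.03, limma adjusted p = 2.2e-05) and 0.44 in wild type (SE 0.03, adjusted p = 2.7e-05), and the TEAD4 lines were not called against each other (log2 0.04, adjusted p = 0.216). Its part in the members' levels was not tested.

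**Figure D5:**
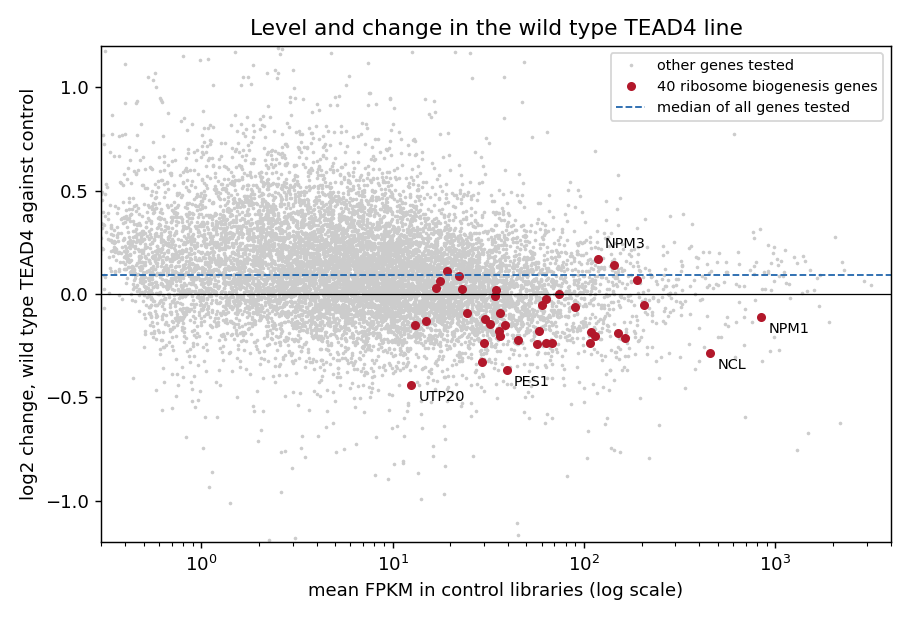
Each point is a gene, with its mean FPKM in control on a log axis and its log2 change in wild type against control, members in red and other genes in grey, and 136 genes lie outside the axes. The members sit at 12.5 to 845 FPKM and mostly below the dashed median of all genes, 0.09.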

How the data were processed

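RNA of 6 libraries, 2 for each of 3 lines, was made with a TruSeq RNA kit from total RNA, per the labels' protocols. The authors deposited FPKM values, 1 table per library. Bowtie 0.12.2 and the build hg18 are named in the submitters' processing notes, but not the program and annotation behind FPKM or how it treated strand and reads that match several genes, which are not given here. Rescaling by library total makes a rise of some genes lower the rest, and its part in the members' levels was not tested. Their median log2 change in wild type against control was -0.14 as deposited and -0.23 after median-of-ratios scaling. Of 20030 rows, 4 with repeated identifiers were left out, and 4066 were listed at 0 in every library.

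The 3 group means were fitted to log2(FPKM + 1) of all 6 libraries with limma 3.58.1 (R 4.3.3), using its trend option, over 11445 genes that reached 0.5 FPKM in 2 or more libraries. Contrasts were two-sided with a threshold of 0.05 after Benjamini-Hochberg adjustment over all genes. This scale slightly understates the change of low genes. The fit was also run on simulated data with independent noise and few changed genes. Far more genes were called in wild type against control here, so that run does not give the rate of false calls in these data. The alternatives were a pseudocount of 0.1, no filter, 1 FPKM in all libraries, median-of-ratios and upper-quartile scaling, no trend, each library left out, control libraries averaged and the replicate number as a block.

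The members and lists were chosen with earlier results of these data known. Genes given with values per library were the 8 members with the largest called change in each comparison and the core of each complex, with RRP9 added after its values were seen. Of 115 other genes, 3 were found under an older symbol. Gene positions are from GENCODE release 29 on GRCh38 and promoters from RefSeq on GRCh38.p14. Protein sequences were not used here. The number of reads behind each value is unknown.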

Additional observations from a re-analysis of the deposited data

How the results depend on the processing

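Results were recomputed under 14 alternatives, and where a line kept 1 library it was assumed to vary like the other lines. In wild type against control the count of lower members stayed within 1.5 times under each of them (18 to 26 with a library left out). Higher members there numbered 0 after median-of-ratios and 1 after upper-quartile scaling, other ribosome biogenesis genes 4 higher and 71 lower with median-of-ratios scaling, and all genes 2943 higher and 2416 lower with it and 3185 higher and 2162 lower after upper-quartile scaling. The members' median log2 change there was -0.23 and -0.21 after these scalings. The scalings moved the median of all genes by less than 0.1.

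In K178R against control, the higher members fell to 0 with no filter, no trend, averaged control libraries or the replicate block, and ranged from 0 to 1 with a library left out. Lower members were 2 with no trend, 0 with averaged controls, and 0 to 6 with a library left out. Other ribosome biogenesis genes were 3 higher with no filter or averaged controls (3 to 6 with a library left out), and 10 lower with no trend and 7 with averaged controls (7 to 14 with a library left out). All genes were 660 higher and 568 lower with averaged controls, and 733 to 1285 and 633 to 1259 with a library left out.

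In K178R against wild type, lower members were 0 after median-of-ratios scaling, 1 after upper-quartile scaling, and 3 with no trend, averaged controls or the replicate block, and 2 to 3 with a library left out. Higher members were 12 to 19 with a library left out. Other ribosome biogenesis genes were 62 and 58 higher and 3 and 3 lower after the 2 scalings, with 4 to 10 lower when a library was left out. Median-of-ratios scaling gave 2171 higher and 2598 lower among all genes, and upper-quartile scaling 1951 higher. The members' median was 0.18 and 0.17. In the same comparison the log2 difference of FBL turned to 0.0843 after median-of-ratios and 0.0688 after upper-quartile scaling, and that of NOP58 to 0.0783 after median-of-ratios scaling, each called. The cause of these moves was not tested.

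The replicate numbers share no litter or batch in the labels, and deviations of same-numbered libraries correlated at 0.0154, -0.0311 and 0.0323 across 11445 genes, so the numbers were not taken as pairs. With the replicate block, wild type against control kept its counts within 1.5 times.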
